A study of Mus musculus with 4 samples.

Results

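The immediate-early genes Egr1, Egr2, Egr3, Fos, Fosb, Jun, Junb, Ier2, Ier3 and Atf3 were followed across 4 arrays of cultured mouse dendritic cells (DCs). The 10 genes are a fixed list of symbols. Each was measured by 1 probe set that carries no other symbol, and they are 10 of 19938 genes with such a probe set. The cells were grown for 8 days from C57BL/6 bone marrow in Flt3 ligand at 200 ng/ml, the cytokine that drives DC development, with fresh medium and cytokine added on the way, and the labels name no further stimulus. The groups were miR-142-/- (ko) CD8-equivalent DCs, miR-142+/+ (wt) CD8-equivalent DCs, ko CD4-equivalent DCs and wt CD4-equivalent DCs, with 1 array each. All were sorted as B220-negative and CD11c-positive, CD8-equivalent DCs as CD172-negative, CD24-positive and CD11b-low, and CD4-equivalent DCs as CD172-positive, CD24-low and CD11b-positive. The labels give neither the number of mice or cultures behind an array nor the order or duration of the sorts. Differences between single arrays therefore have no replicate check. Where a p-value is given, it comes from limma, fitted with genotype and subset as separate terms. The subset pairs then serve as the repeats of the genotype effect, and the genotype pairs as those of the subset effect. The error behind a p-value combines a gene's departure from additivity over the 4 arrays with a variance pooled over all genes tested. The pooled part carries 3.98 degrees of freedom and the gene's own part 1, so the error is largely shared between genes. Part of the departure from additivity may be technical.

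Immediate-early genes are transcribed within minutes of a stimulus, without new protein synthesis, by factors already present in the cell such as serum response factor and CREB, mostly downstream of MAP kinases. Fos and Fosb proteins pair with Jun and Junb to form AP-1, the Egr proteins are zinc finger factors that bind GC-rich DNA, and Atf3 is a related basic leucine zipper protein. In DCs and macrophages these genes respond to microbial ligands and growth factors, Atf3 is known to restrain cytokine genes after Toll-like receptor signals, and the transcripts also respond to cell handling.

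The microRNA removed in ko cells is given with both of its mature strands, since it defines the genotype. Capitals mark the seed, bases 2 to 8 from the 5′ end, and the sequences are from RefSeq (GRCm38.p6).
mmu-miR-142a-3p, chr11:87756903-87756925 (+ strand): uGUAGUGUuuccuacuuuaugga
mmu-miR-142a-5p, chr11:87756867-87756887 (+ strand): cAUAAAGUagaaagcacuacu

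Upstream windows in RefSeq matched 7 of the 10 members. The window is the 250 bases before an annotated transcript start, and 4 are shown because Jun, Atf3 and Egr2 had the largest subset differences and Fos is the partner of Jun. Windows were searched on both strands for TGACGT, the core of the cAMP response element bound by CREB and Atf3, for TGACNTCA, a longer AP-1 and CREB form that overlaps the core where N is G, for the AP-1 site TGANTCA, for the Egr site GCGNGGGCG, and for the CArG box of serum response factor. Capitals mark every match.
Jun, chr4:95052223-95052472 (− strand): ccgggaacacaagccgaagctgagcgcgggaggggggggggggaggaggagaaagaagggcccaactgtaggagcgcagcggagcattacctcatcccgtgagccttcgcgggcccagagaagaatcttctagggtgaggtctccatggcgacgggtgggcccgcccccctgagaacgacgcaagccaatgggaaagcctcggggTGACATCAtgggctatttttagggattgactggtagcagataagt
Atf3, chr1:191183334-191183583 (− strand): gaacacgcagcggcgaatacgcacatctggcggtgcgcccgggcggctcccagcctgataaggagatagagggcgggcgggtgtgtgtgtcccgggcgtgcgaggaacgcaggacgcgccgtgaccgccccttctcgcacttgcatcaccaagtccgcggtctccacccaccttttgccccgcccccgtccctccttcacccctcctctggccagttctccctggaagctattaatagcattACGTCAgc
Fos, chr12:85473640-85473889 (+ strand): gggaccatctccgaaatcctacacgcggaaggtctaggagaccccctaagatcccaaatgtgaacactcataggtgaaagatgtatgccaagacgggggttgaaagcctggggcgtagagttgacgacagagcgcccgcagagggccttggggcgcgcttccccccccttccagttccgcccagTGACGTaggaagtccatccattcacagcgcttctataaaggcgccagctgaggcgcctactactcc
Egr2, chr10:67537619-67537868 (+ strand): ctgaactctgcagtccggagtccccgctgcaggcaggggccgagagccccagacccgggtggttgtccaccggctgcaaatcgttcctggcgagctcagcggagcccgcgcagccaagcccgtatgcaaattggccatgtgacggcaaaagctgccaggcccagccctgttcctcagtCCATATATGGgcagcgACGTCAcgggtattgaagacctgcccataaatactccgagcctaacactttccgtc
The core TGACGT, read on either strand, was matched in 3 of the 7 members (Fos, Atf3 and Egr2). It occurred in 6.47% of 32851 windows of this length, which overlap where a gene has several starts. That share is per window, while the count is per member, and Egr2 had 5 windows in which to match. Its first base lay 66 bases before the start in Fos, 8 bases in Atf3 and 56 bases in the Egr2 window shown. Jun held the only TGACNTCA, 45 bases before the start, a form found in 7.49% of windows. In the Egr2 window shown the CArG box stood beside the core. Both were matched in 3 of that gene's 5 windows, but these 3 overlap and hold the same site. Another Egr2 window held a separate CArG box, 72 bases before its transcript start, without the core. A CArG box occurred in 1.47% of all windows. Fosb had the Egr site (4.70% of windows), and the AP-1 site TGANTCA was matched in 0 of the 7 members, against 6.75% of windows. These matches describe letters and are not measured binding.

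The values are RMA log2 summaries, a method that usually normalises arrays by quantiles and compresses differences near background. A floor of 5.68, the median of all probe sets with 1 symbol, was used to decide which genes to compare, and 9774 to 9821 genes reached it on an array. The Mir142 probe set followed the genotype labels, at 4.79 in ko and 9.87 in wt CD8-equivalent DCs and at 4.92 in ko and 10.37 in wt CD4-equivalent DCs. Sirpa, which encodes CD172a, and Itgam, which encodes CD11b, followed the subset labels, with log2 differences of CD8-equivalent minus CD4-equivalent DCs of -2.25 in ko and -2.42 in wt for Sirpa. Cd24a, which encodes the sort marker CD24, separated the subsets less in ko: it read 12.72 in ko and 12.76 in wt CD8-equivalent DCs, against 11.98 in ko and 10.98 in wt CD4-equivalent DCs, a difference of 0.73 in ko and 1.78 in wt. Its subset difference over both genotypes had a limma adjusted p of 0.041, and the smaller gap in ko was not tested. Markers of B cells and of T and NK cells were below the floor on all 4 arrays. Of 12 neutrophil markers, 1 reached the floor in ko CD8-equivalent, 0 in wt CD8-equivalent, 11 in ko CD4-equivalent and 4 in wt CD4-equivalent DCs, so the ko CD4-equivalent array stood apart in granulocyte transcripts. The subset differences within wt, which do not use that array, are given beside those within ko. In RNA from a sorted population, fewer cells of a type and less RNA per cell cannot be told apart.

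All 10 immediate-early genes reached the floor on at least 1 array and 9 on all 4. The exception was Fosb, the Fos relative, which read 5.93, 5.78 and 6.08 in ko CD8-equivalent, wt CD8-equivalent and ko CD4-equivalent DCs and 5.56 in wt CD4-equivalent DCs. Its span of 0.52 lay near background on every array. The widest spans over the 4 arrays were those of Atf3 (2.69), Jun (2.24), Ier3 (1.70) and Egr2 (1.69), and the narrowest besides Fosb were Egr1 (0.81) and Ier2 (0.85). Without replicates, the order of neighbouring arrays within a gene has no measured error. The order took a few forms. The ko CD4-equivalent array was highest for Egr1, Egr3, Fos, Fosb, Jun, Junb and Ier2. The wt CD4-equivalent array was highest for Egr2, Ier3 and Atf3. The ko CD8-equivalent array was lowest for Fos, Jun, Junb, Ier3 and Atf3, and the wt CD8-equivalent array for Egr1, Egr2, Egr3 and Ier2.

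**Figure D1:**
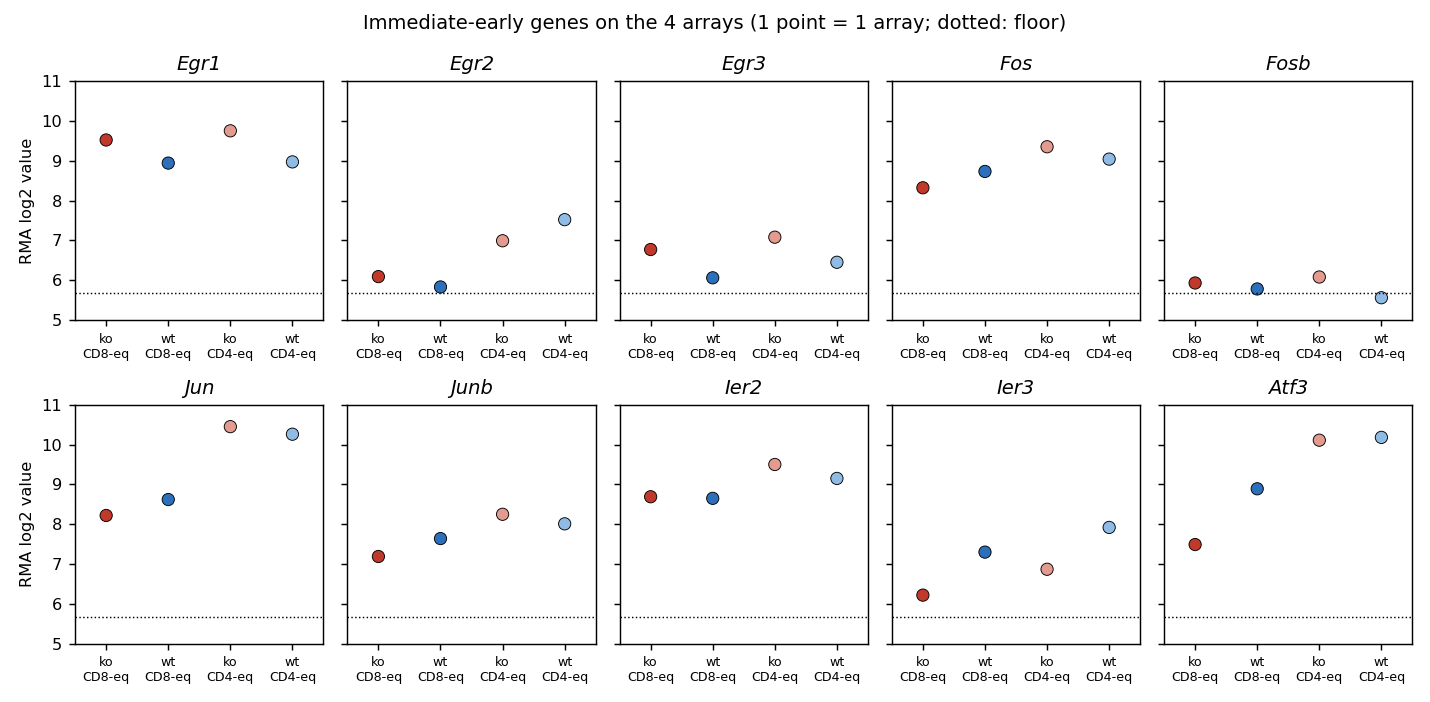
RMA log2 values of the 10 immediate-early genes (vertical axis) on the 4 arrays (horizontal axis), 1 point per array with no error bars, and the floor of 5.68 as a dotted line. Jun and Atf3 lie lowest on the CD8-equivalent arrays, Egr1 and Egr3 are higher on the ko array of each subset, and Ier3 is lower on it.

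The first comparison asked how the immediate-early genes differed between CD8-equivalent and CD4-equivalent DCs. Jun, the AP-1 subunit, and Atf3 showed the largest differences, both lower in CD8-equivalent DCs. Of the 10 genes, Jun, Atf3, Egr2, Ier2 and Ier3 fell by limma's test over all genes (adjusted p under 0.05) and 0 rose, while 1467 of all 10239 genes tested (14.3%) were called, 650 (6.35%) as lower and 817 (7.98%) as higher. The CD8-equivalent value lay below the CD4-equivalent value in both genotypes for 9 members, all but Fosb, against 29.0% of all genes. At an unadjusted p under 0.05 the number was 8 of 10, against 33.3% of all genes. The median limma difference over the 10 genes was -0.66, against 0.076 over all genes. The count depended on the settings. It was 2 (Jun and Ier3) without the floor, when many background probe sets entered the test and 4.74% of all genes were called. With a trended and robust variance prior it was 6, including Fos and Junb but not Atf3, against 20.8% of all genes.

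Jun, the central subunit of AP-1, read 8.22 in ko and 8.62 in wt CD8-equivalent DCs, against 10.45 in ko and 10.26 in wt CD4-equivalent DCs. Both CD8-equivalent values lay well below both CD4-equivalent values. Such separation of arrays was not counted over all genes, so here and for the genotypes below it only describes the values. The difference was -2.24 in ko (4.71-fold lower) and -1.64 in wt (3.13-fold lower), with a limma estimate of -1.94 ± 0.18 (SE, adjusted p = 0.008). Jun stayed called under all 6 alternatives run for the test, with adjusted p from 0.00058 to 0.029.

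Atf3 read 7.49 in ko and 8.89 in wt CD8-equivalent DCs, against 10.11 in ko and 10.18 in wt CD4-equivalent DCs. The subsets again did not overlap, and the CD8-equivalent arrays themselves differed. Atf3 was 6.17-fold lower in CD8-equivalent DCs of ko (-2.63) and 2.43-fold lower in those of wt (-1.28), with a limma estimate of -1.95 ± 0.32 (SE, adjusted p = 0.024). This call was lost without the floor (adjusted p = 0.07) and with the trended and robust prior (adjusted p = 0.082).

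Egr2, the zinc finger factor also called Krox20, read 6.09 in ko and 5.83 in wt CD8-equivalent DCs, close to the floor, against 6.99 in ko and 7.52 in wt CD4-equivalent DCs. The subsets did not overlap. Unlike that of Atf3 and Jun, its difference was larger in wt (-1.69) than in ko (-0.91), and limma estimated -1.30 ± 0.21 (SE, adjusted p = 0.024, and 0.063 without the floor). RMA compresses values near background, so the fold from Egr2's CD8-equivalent level may understate the ratio.

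Ier3, a regulator of apoptosis induced by stress and NF-kB signals, read 6.22 in ko and 7.30 in wt CD8-equivalent DCs, against 6.87 in ko and 7.92 in wt CD4-equivalent DCs. Here the genotypes split the arrays further than the subsets did, but within each genotype the CD8-equivalent array was lower, with differences of -0.65 in ko and -0.62 in wt (limma -0.63 ± 0.12 (SE), adjusted p = 0.031). Ier2, a small nuclear protein, read 8.69 in ko and 8.65 in wt CD8-equivalent DCs, against 9.50 in ko and 9.15 in wt CD4-equivalent DCs (limma -0.66 ± 0.14 (SE), adjusted p = 0.041, and 0.067 without the floor).

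Of the other AP-1 genes, Fos and Junb pointed the same way without passing the test. Fos read 8.32 in ko and 8.73 in wt CD8-equivalent DCs, against 9.35 in ko and 9.04 in wt CD4-equivalent DCs, a difference of -1.03 in ko and -0.32 in wt (adjusted p = 0.084). Junb read 7.19 in ko and 7.64 in wt CD8-equivalent DCs, against 8.25 in ko and 8.01 in wt CD4-equivalent DCs, a difference of -1.06 in ko and -0.37 in wt (adjusted p = 0.07). For both genes the values of the subsets did not overlap, a description without a test, and the wt arrays were close together.

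At 2-fold or more, 4 members were lower in CD8-equivalent DCs of ko (Atf3, Jun, Junb and Fos), where 7.29% of 10118 genes compared differed, 3.90% lower and 3.39% higher. In wt there were 3 (Egr2, Jun and Atf3), where 5.24% of 9998 genes differed, 3.14% lower and 2.10% higher. In neither genotype was a member 2-fold higher. The medians of the members were -0.86 in ko and -0.44 in wt, against 0.114 and 0.039 over all genes compared. Egr1 and Egr3 differed little between the subsets: Egr1 by -0.23 in ko and -0.04 in wt (adjusted p = 0.49), and Egr3 by -0.31 and -0.39 (adjusted p = 0.11). After centring each array on its median the wt difference of Egr1 was 0. Fosb differed by -0.15 in ko and 0.23 in wt (adjusted p = 0.88).

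**Figure D2:**
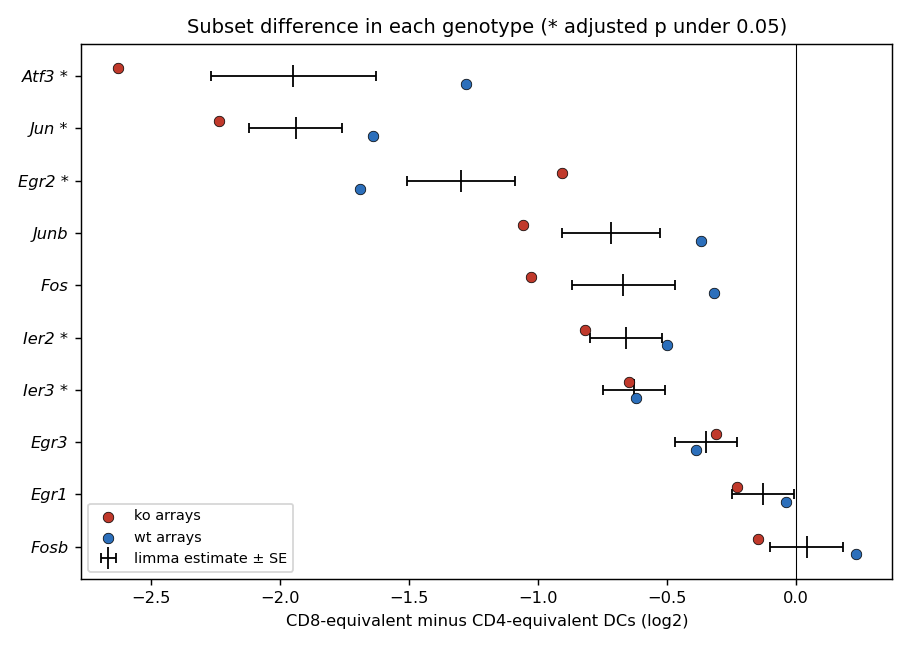
Log2 difference of CD8-equivalent minus CD4-equivalent DCs (horizontal axis) for each member, in ko arrays (red) and wt arrays (blue), with limma's estimate and SE over both genotypes in black and a star where the adjusted p is under 0.05. Atf3 and Jun lie furthest left, and Fosb is the only member with a positive value in wt.

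Markers of several other cell types moved along with this difference. Of 12 monocyte and macrophage markers, 10 reached the floor on some array. Of these limma called 4 lower in CD8-equivalent DCs and 0 higher, against 6.35% and 7.98% of all genes. The mean log2 level of the list was 7.09 in ko and 8.40 in wt CD8-equivalent DCs, against 9.55 in ko and 9.46 in wt CD4-equivalent DCs. The number of these markers at the floor was 6 in ko CD8-equivalent DCs and 10 on each other array, and the defining marker Adgre1, which encodes F4/80, was below the floor in ko CD8-equivalent DCs at 5.08. Of 11 neutrophil markers at the floor, 2 were called lower (Mmp8 and Csf3r), against 6.35% of all genes, and the median was -2.29. Many of the 11 entered the test only through the ko CD4-equivalent array, so a lower value in CD8-equivalent DCs was built in for them. Within wt the median over all 12 neutrophil markers was -0.41. Of 8 plasmacytoid DC markers, 5 were called higher although the sort took B220-negative cells, against 7.98% of all genes, and the median was 0.96. The limma estimate was 3.46 for Ly6d and 2.26 for Cox6a2. Spib (-0.51) and Il3ra (-0.07) had estimates below 0 and were not called. Of 5 stem and progenitor markers 3 were called higher, against the same 7.98% of all genes, with a median of 0.99. The part of these lists in the subset difference of the members was not tested.

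The second comparison asked which immediate-early genes differed between ko and wt. Egr1 and Egr3 had higher values in ko of both subsets and Ier3 lower values, while Fos, Jun and Junb had values of opposite sign in the subsets. Ko lay above wt in both subsets for 4 members (Egr1, Egr3, Fosb and Ier2), against 24.5% of all genes, and below it in both for Ier3 and Atf3, against 37.3%. After median centring the value of Ier2 in CD8-equivalent DCs was -0.03 in place of 0.04. By limma's test over all genes, 0 of the 10 members were called, where 17 of 10239 genes (0.166%) were, 0.107% higher and 0.0586% lower. At an unadjusted p under 0.05 there were 3 members (Egr1, Egr3 and Ier3), against 15.6% of all genes. With the trended and robust prior, Ier3 (adjusted p = 0.019) and Egr1 (adjusted p = 0.036) were called, among 307 genes (3% of those tested). After median centring, Ier3 was called (adjusted p = 0.018), among 240 genes (2.34%).

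Egr1, the founding member of the Egr family, read 9.52 in ko and 8.94 in wt CD8-equivalent DCs, and 9.75 in ko and 8.97 in wt CD4-equivalent DCs. Both ko arrays lay above both wt arrays, and the wt values were almost equal. The difference was 0.58 in CD8-equivalent DCs and 0.78 in CD4-equivalent DCs (1.71-fold higher), with a limma estimate of 0.68 ± 0.12 (SE, adjusted p = 0.11). Egr3, which is induced alongside Egr2 by calcium signals in T cells, read 6.77 in ko and 6.06 in wt CD8-equivalent DCs, and 7.08 in ko and 6.45 in wt CD4-equivalent DCs. Its difference was 0.71 (1.63-fold) and 0.63 (1.55-fold), and limma estimated 0.67 ± 0.12 (SE, adjusted p = 0.099). In Egr3 also the ko arrays lay above both wt arrays. Egr2 did not share this order, with 0.25 in CD8-equivalent and -0.53 in CD4-equivalent DCs (adjusted p = 0.81).

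Ier3 was the member nearest to the threshold. It was 2.12-fold lower in ko of CD8-equivalent DCs (-1.08) and 2.07-fold lower in ko of CD4-equivalent DCs (-1.05), and limma estimated -1.07 ± 0.12 (SE, adjusted p = 0.055). Both ko values lay below both wt values. The sizes in the subsets were nearly equal, with a difference between them of -0.03.

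The genotype difference of Atf3 was of unequal size in the subsets, which the design cannot test. In CD8-equivalent DCs it was 2.65-fold lower in ko (-1.41), while in CD4-equivalent DCs the ko and wt arrays read nearly the same (-0.06, and 0.04 after cyclic loess). Over both subsets limma estimated -0.74 ± 0.32 (SE, adjusted p = 0.37). Fos, Jun and Junb showed smaller differences of opposite sign, -0.41, -0.40 and -0.45 in CD8-equivalent DCs and 0.31, 0.19 and 0.24 in CD4-equivalent DCs (adjusted p from 0.83 to 0.93). Ier2 differed by 0.04 and 0.36 and Fosb by 0.14 and 0.52 (adjusted p = 0.56 and 0.36).

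At 2-fold or more, the members lower in ko were Ier3 and Atf3 in CD8-equivalent DCs, where 2.15% of 9972 genes compared differed, 1.00% lower and 1.14% higher, and Ier3 in CD4-equivalent DCs, where 2.35% of 9978 genes differed, 0.952% lower and 1.39% higher. In neither subset was a member 2-fold higher. The median over the members was -0.18 in CD8-equivalent and 0.27 in CD4-equivalent DCs, against 0.004 and -0.077 over all genes compared. After cyclic loess Ier3 was under 2-fold in CD4-equivalent DCs (-0.94).

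**Figure D3:**
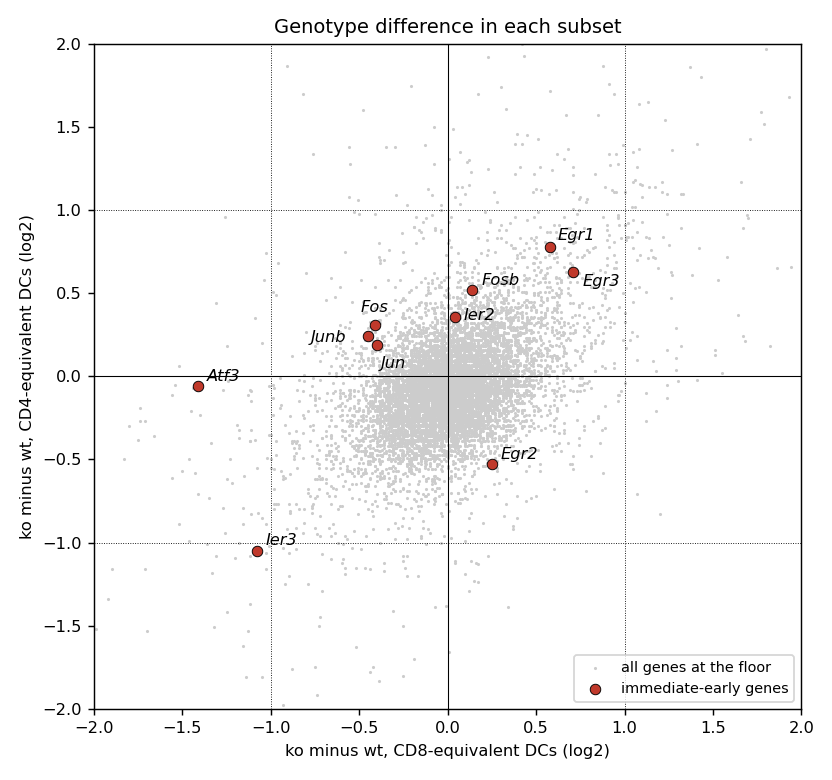
Log2 difference of ko minus wt in CD8-equivalent DCs (horizontal axis) against that in CD4-equivalent DCs (vertical axis) for the 10 members (red) and all genes at the floor on any array (grey), with dotted lines at 2-fold. Axes end at -2 and 2, which leaves 53 genes outside. Egr1 and Egr3 lie at the upper right, Ier3 at the lower left, and Fos, Jun and Junb left of and above 0.

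The third comparison was the difference between these differences, ko minus wt in CD8-equivalent DCs minus ko minus wt in CD4-equivalent DCs. It takes the last degree of freedom of the design, so it has no test. It was below 0 for 8 of the 10 members, against 39.4% of 10239 genes, and the median was -0.35, against 0.069 over all genes. Atf3 had the lowest value (-1.34) and was the 1 member at -1 or less, where 1.20% of all genes were (2.24% at a size of 1 or more in either direction). Fos (-0.72), Junb (-0.69) and Jun (-0.59) followed, then Fosb (-0.38), Ier2 (-0.32), Egr1 (-0.20) and Ier3 (-0.03). Egr2 had 0.79 and Egr3 had 0.07, which became -0.07 after cyclic loess and -0.02 after median centring.

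Markers of other cells also differed between ko and wt by subset. Among 10 macrophage markers at the floor, 7 were 2-fold or more below wt in ko CD8-equivalent DCs and 0 above it. Of all genes compared, 1.00% were lower and 1.14% higher. Among the 7, Adgre1 read 5.08 in ko and 8.09 in wt. Others were the complement receptor gene C3ar1 (-2.83), the lipoprotein gene Apoe (-2.16) and lysozyme Lyz2 (-1.44). In CD4-equivalent DCs Adgre1 was lower (-1.55), C1qb was higher (1.03) and the other 8 of 10 were under 2-fold. In ko CD4-equivalent DCs 8 of 11 neutrophil markers at the floor were at least 2-fold higher, against 1.39% of all genes compared. Only 4 of the 11 reached the floor in wt CD4-equivalent DCs, so a higher ko value was built in for the others. At least 2-fold higher were 3 of 8 plasmacytoid DC markers and 4 of 8 CD8-equivalent DC markers at the floor, among them Clec9a (3.07). Of 5 stem and progenitor markers, 3 lay above wt in ko CD8-equivalent DCs and 5 in ko CD4-equivalent DCs. Kit (-0.60) and Cd34 (-0.09) lay below wt in CD8-equivalent DCs. The median of the 5 markers was 0.94 in CD8-equivalent and 0.95 in CD4-equivalent DCs, against 0.004 and -0.077 over all genes compared. Above wt in both subsets were 24.5% of all genes, and the share within each subset was not counted. Hoxa9, a homeobox gene of blood progenitors, rose (3.02 and 3.46, adjusted p = 0.0095), from a value below the floor in wt CD4-equivalent DCs. Meis1, its partner, had 1.70 and 0.95 (adjusted p = 0.079), Myb had 0.94 and 1.11 (adjusted p = 0.061), and the granule gene Mpo had 2.76 and 1.85 (adjusted p = 0.053). The part of these transcripts in the values of the members was not tested.

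**Figure D4:**
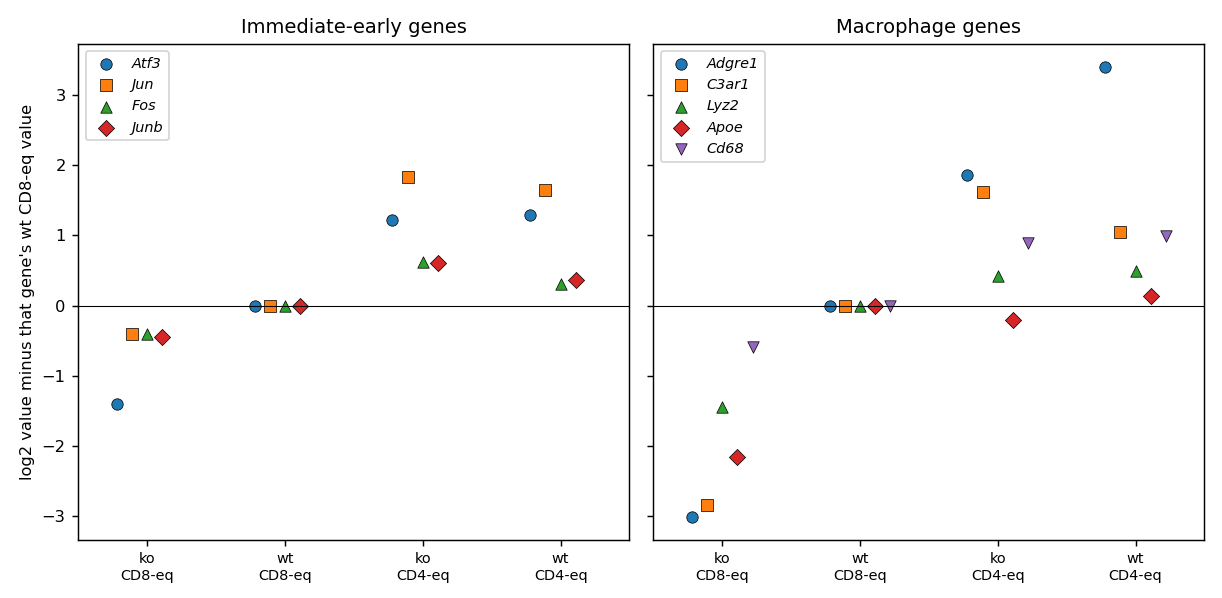
Log2 values of Atf3, Jun, Fos and Junb (left) and of 5 macrophage markers (right) on the 4 arrays (horizontal axis), each minus that gene's value on the wt CD8-equivalent array (vertical axis), 1 point per array. All 9 genes lie lowest on the ko CD8-equivalent array, and Atf3 and Jun are highest on the CD4-equivalent arrays.

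Other genes of the same response were examined by lists. Of 36 further immediate-early genes, 31 reached the floor. By limma 6 fell in CD8-equivalent relative to CD4-equivalent DCs, 2 rose and 23 were not called, against 6.35% of all genes that fell and 7.98% that rose, and the median was -0.31, against 0.076 over all genes. The genes that fell were Fosl2, a Fos relative (-2.24 in ko and -2.03 in wt, adjusted p = 0.0033), the orphan nuclear receptor Nr4a3 (-1.59 and -1.45, adjusted p = 0.0062), the pseudokinase Trib1 (-1.23 and -0.64, adjusted p = 0.033), the mRNA decay factors Zfp36 (10.10 in ko and 10.48 in wt, against 11.10 in both CD4-equivalent arrays, adjusted p = 0.028) and Zfp36l1 (differences -0.59 and -0.81, adjusted p = 0.029), and Ier5 (-0.87 and -0.66, adjusted p = 0.024). Nr4a3 and Trib1, counted among the 6 that fell, entered the test only through the CD4-equivalent arrays. Their CD8-equivalent values lay below the floor (5.18 in ko and 5.20 in wt for Nr4a3, 5.38 in ko and 5.42 in wt for Trib1). A lower value in CD8-equivalent DCs was therefore built in for both, and the sizes of their differences are uncertain. Sik1, a kinase induced by cAMP signals, rose (1.16 and 1.46, adjusted p = 0.010), as did Id2, the inhibitor of E proteins that CD8-type DCs need (0.57 and 0.83, adjusted p = 0.031). With the trended and robust prior 15 genes of this list were called, and without the floor 5, in place of 8. In the genotype test 0 of the 31 were called, and Sik1 had 0.66 in CD8-equivalent and 0.96 in CD4-equivalent DCs (adjusted p = 0.091).

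Among 15 MAP kinase phosphatases and feedback inhibitors, 12 reached the floor and 3 were called between the subsets, 2 higher and 1 lower, against 14.3% of all genes called. Dusp1, a phosphatase of MAP kinases and itself an immediate-early gene, read 7.18 in ko and 7.80 in wt CD8-equivalent DCs, against 9.21 in ko and 9.02 in wt CD4-equivalent DCs (adjusted p = 0.016). Its order over the arrays was that of Jun. The receptor kinase feedback inhibitors Spry2 (0.90 in ko and 0.64 in wt, adjusted p = 0.025) and Spry4 (0.71 and 0.57, adjusted p = 0.032) were called higher. Spry4 reached the floor only in ko CD8-equivalent DCs (5.80) and Spry2 was below it in wt CD4-equivalent DCs (5.08), so both differences include values at background. For Spry4 a higher value in CD8-equivalent DCs of ko was thus built in. Of the kinases of the cascade, 0 of 14 measured members were called for subset or genotype and 0 reached 2-fold in any of the 4 comparisons of single arrays.

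Of 8 measured serum response and ternary complex factors with the Egr corepressors, 2 were called, against 14.3% of all genes. The corepressor Nab2 fell in CD8-equivalent DCs (-0.66 in ko and -1.19 in wt, adjusted p = 0.029) and the ternary complex factor Elk4 rose (0.66 and 0.46, adjusted p = 0.046). Of 15 other leucine zipper partners at the floor 2 were called, a share near the 14.3% of all genes. Batf3, which CD8-type DCs require, rose in CD8-equivalent DCs (1.08 and 1.63, adjusted p = 0.015), and the heme-regulated repressor Bach1 fell (-1.17 and -1.01, adjusted p = 0.012). In the genotype test 0 genes of either list were called, with Nab2 at 0.89 in CD8-equivalent and 0.36 in CD4-equivalent DCs (adjusted p = 0.19).

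Immediate-early transcripts also respond to stress, so stress genes were counted too. Of 10 heat shock genes at the floor, 1 rose in CD8-equivalent DCs, the chaperonin Hspd1 (0.69 and 0.50, adjusted p = 0.041), and 0 fell, near the 7.98% of all genes called higher, and 0 were called for genotype. The co-chaperone Dnajb4 was at least 2-fold lower in CD8-equivalent DCs of wt (-1.16) and differed by -0.31 in ko (adjusted p = 0.091). Of 7 targets of the integrated stress response at the floor, 3 rose in CD8-equivalent DCs and 0 fell, against the same 7.98%: the glutathione-degrading Chac1 (1.01 and 1.06, adjusted p = 0.013), the asparagine synthetase Asns (0.95 and 0.84, adjusted p = 0.016) and the serine synthesis enzyme Psat1 (0.54 and 1.17, adjusted p = 0.043). In the genotype test 0 were called. The ko values lay below wt for 7 of 7 in CD8-equivalent and 5 of 7 in CD4-equivalent DCs, with medians of -0.39 and -0.36, against 0.004 and -0.077 over all genes compared. Below wt in both subsets were 37.3% of all genes, and the share within each subset was not counted. The pseudokinase Trib3 had the largest difference in CD8-equivalent DCs (-1.18, and -0.37 in CD4-equivalent DCs).

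**Figure D5:**
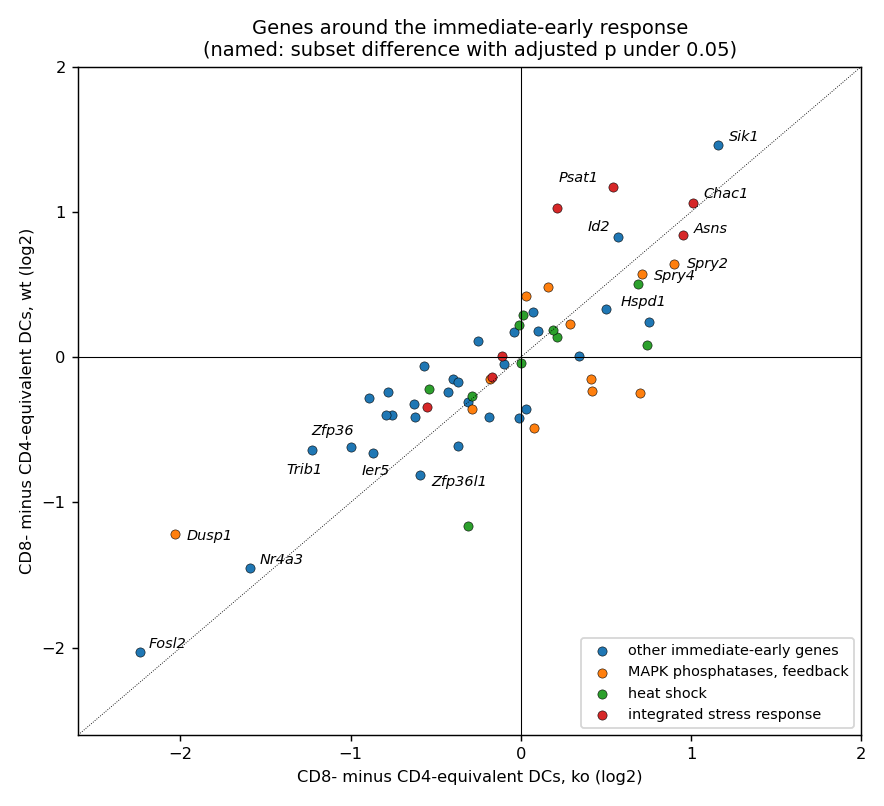
Log2 difference of CD8-equivalent minus CD4-equivalent DCs in ko (horizontal axis) against that in wt (vertical axis) for members of 4 related gene lists (colours), 1 point per gene at the floor on any array, with genes named where limma's adjusted p is under 0.05 and the line of equality dotted. Fosl2, Nr4a3 and Dusp1 lie at the lower left, and Sik1, Chac1 and Asns at the upper right.

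Likeness of pattern was measured as the root mean square difference of the 4 log2 values after each gene's mean was subtracted, over 4 arrays. The closest members were Fos and Junb (0.034 on the log2 scale), and Fos was the nearest of 10238 genes to Junb. Egr1 and Egr3 were the next closest members (0.13), and Jun and Atf3 were 0.37 apart. For the 7 members that spanned at least 1 on the log2 scale, the 3 nearest genes were recorded. Atf3 was nearest to the inhibitory receptor gene Lilrb4a (0.078), which read 8.84 in ko and 10.29 in wt CD8-equivalent DCs, against 11.53 in ko and 11.74 in wt CD4-equivalent DCs, and then to Wfdc17 (0.10) and Ifitm6 (0.15). Jun was nearest to the glucose transporter gene Slc2a6 (0.062), Wfdc18 (0.079) and Cav2 (0.10). Ier3 was nearest to the RNA sensor gene Dhx58 (0.029), Akr1e1 (0.13) and the cytokine subunit gene Ebi3 (0.13). Egr2 was nearest to Ndnf (0.099), Trps1 (0.10) and Slc16a7 (0.10), and Egr3 to 1700007K13Rik (0.020), Pcyt1a (0.032) and Tmem63b (0.034). Fos and Junb shared Serpinb8 (0.021 and 0.035) and Tcn2 (0.033 and 0.042). The likeness is a description over 4 arrays, with no test.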

How the data were processed

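Total RNA of sorted DCs was hybridised to 4 Affymetrix arrays, 1 per group. The deposited columns hold log2 values, 1 per probe set and array. Per the submitters' processing notes RMA and Partek were used, without versions. The log base was inferred from the range of 3.52 to 14.3, column medians ran from 5.87 to 5.94, and scale and centring could not be set against scanner values. Of 35399 probe sets, 21789 had 1 symbol, 1621 several and 11989 none in the platform annotation of 2016. By gene ID, 21698 matched RefSeq. For 999 genes with several probe sets the one with the highest mean was used.

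A gene was compared between 2 arrays when the higher value reached the floor, and 2-fold is a log2 difference of 1. limma 3.58.1 in R 4.3.3 fitted an additive model of genotype and subset to 10239 genes at the floor on any array, with 1 residual and 3.98 prior degrees of freedom, two-sided, with Benjamini-Hochberg adjustment at 0.05. The fit was also run on simulated additive data with variances drawn from its own prior. Such data cannot check the fit where genotype and subset effects interact. The alternatives tried were cyclic loess, median centring, the mean over probe sets, other floors, a fold of 1.5 and a trended, robust prior. The members and lists were chosen with earlier results of these data known. Named genes were the members, genes of the lists that passed 2-fold or limma's test, check and marker genes, and the 3 nearest patterns. Dates of slides or scans were not used here.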

Additional observations from a re-analysis of the deposited data

Results flagged for a closer look

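For 4 members the ko and wt arrays differed in opposite directions in the subsets, and the difference between the subsets was not tested. The value in CD8-equivalent minus that in CD4-equivalent DCs was 0.79 for Egr2, -0.72 for Fos, -0.59 for Jun and -0.69 for Junb. For Fosb the subset difference had opposite signs in the genotypes, and the value in ko minus that in wt was -0.38, also not tested, with 1 of its 4 values below the floor.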

How the results depend on the processing

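The number of members at 2-fold or more was 2 for ko minus wt in CD8-equivalent DCs, where 2.15% of all genes compared passed. It was 1 with the floor at the 75th percentile (8.88), where 1.7% passed. In CD4-equivalent DCs it was 1 (2.35% of all genes), but 0 after cyclic loess (2.52%), 0 with the higher floor (2.03%) and 3 at 1.5-fold (7.70%). For CD8-equivalent minus CD4-equivalent DCs in ko it was 4 (7.29%), and 7 at 1.5-fold, where 20.2% of all genes passed. In wt the 3 members stayed within 2 to 4 under the alternatives run. The genotype test called 0 members, where 0.166% of all genes tested were called. It called 1 after median centring (Ier3, among 240 genes, 2.34%) and 2 with the trended and robust prior (Egr1 and Ier3, among 307 genes, 3%). The number of genes called in all ran from 3 without the floor (0.015%) to 307. The subset test called 5 members, among 1467 genes (14.3% of those tested). Without the floor it called 2, among 946 genes (4.74%), and with the higher floor 3 (Atf3, Ier2 and Jun), among 1281 (23.4%). At the higher floor only Egr1, Fos, Jun, Ier2 and Atf3 were tested. After median centring the subset test called 6, adding Junb (adjusted p = 0.048), among 2101 genes (20.5%). With the trended and robust prior it also called 6, adding Fos and Junb and losing Atf3, among 2128 (20.8%). The higher floor removes genes that are low on all arrays, and the cause of the other shifts was not tested. The median interaction of the members ran from -0.45 to -0.35. No called difference of a member changed sign. No alternative left out an array, since each group holds 1 and the fit would keep 0 residual degrees of freedom. No paired analysis was possible because the groups share fewer than 2 replicate numbers. Each member had 1 probe set, so averaging probe sets left its values unchanged. The number of arrays limits the precision, and values near the floor, as for Fosb and Egr2, are compressed.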
